A study of Mus musculus with 2 samples.

Results

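The nuclear genes of the mitochondrial respiratory chain and of ATP synthase were taken from arrays of mouse CD8 T cells, and they comprised 93 of the 21877 genes measured. Members were chosen by gene symbol alone, as symbols starting with Nduf, Uqcr, Cox4 to Cox8 or Atp5, together with Sdha, Sdhb, Sdhc, Sdhd and Cyc1. The symbols matched 95 probe sets, and the brightest was used for Atp5d and Ndufa13, which had 2 each. The first culture was kept under Tc1 cytokines with cholesterol, and the other under Tc1 cytokines without it. Tc1 conditions drive CD8 T cells toward interferon gamma production and killing. Each group had 1 array of total RNA, so the differences below carry neither a replicate error nor a p-value. The sources used here do not give the dose, duration or vehicle, nor the strain, age or tissue of the mice.

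The respiratory chain passes electrons from NADH (complex I) and succinate (complex II) through ubiquinone to complex III, cytochrome c and complex IV, which reduces oxygen. Complexes I, III and IV pump protons across the inner membrane, and ATP synthase, complex V, uses their return to make ATP. CD8 T cells raise glycolysis on activation, and memory cells are known for relying on oxidative phosphorylation. Mitochondrial DNA encodes some subunits of complexes I, III, IV and V. All 13 of these subunits were listed for comparison, none matched a symbol in the table, and they were not analysed here.

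Several nuclear regulators are known to act on these genes, among them NRF1, GABP, YY1 and the estrogen-related receptors (ERR). Promoters of 76 of the 93 members were found in RefSeq (GRCm38.p6), 73 by symbol and 3 by synonym, each running from 250 bases before to 50 bases after the gene start. The 17 others included Ndufs1, Ndufa2, Ndufb9, Ndufaf6, Sdhc, Cyc1, Uqcrc2, Uqcrb, Uqcrq, Cox4i1, Cox6c, Cox4i2, Cox6a2, Cox8c, Ndufa4l2 and Atp5a1. The 76 promoters were searched on both strands for 6 motifs. The promoters of 4 genes are shown because they carry the extremes of the data and of the motif counts. Ndufs5 and Cox7a2l had the most negative and the most positive log2 difference among members past a brightness filter, a signal of at least 47.4 on the brighter array. Sdha and Ndufb4 held the most NRF1 matches, 3 each. Capitals mark motif matches, which did not overlap. The Ndufs5 window lies at chr4:123718137-123718436, Sdha at chr13:74350191-74350490, Ndufb4 at chr16:37654319-37654618 and Cox7a2l at chr17:83514284-83514583, all on the minus strand.
Ndufs5: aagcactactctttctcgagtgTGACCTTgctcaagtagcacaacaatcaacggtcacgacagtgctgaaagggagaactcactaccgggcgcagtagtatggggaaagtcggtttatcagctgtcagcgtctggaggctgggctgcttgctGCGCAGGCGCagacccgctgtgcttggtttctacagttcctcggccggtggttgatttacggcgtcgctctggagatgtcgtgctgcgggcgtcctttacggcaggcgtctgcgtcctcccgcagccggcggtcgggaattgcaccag
Sdha: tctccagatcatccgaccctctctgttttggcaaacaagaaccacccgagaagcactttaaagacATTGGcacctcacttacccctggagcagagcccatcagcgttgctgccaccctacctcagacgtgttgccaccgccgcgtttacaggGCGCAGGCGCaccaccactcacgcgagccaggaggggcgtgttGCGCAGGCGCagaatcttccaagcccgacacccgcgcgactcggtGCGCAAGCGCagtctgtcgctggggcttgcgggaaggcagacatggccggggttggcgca
Ndufb4: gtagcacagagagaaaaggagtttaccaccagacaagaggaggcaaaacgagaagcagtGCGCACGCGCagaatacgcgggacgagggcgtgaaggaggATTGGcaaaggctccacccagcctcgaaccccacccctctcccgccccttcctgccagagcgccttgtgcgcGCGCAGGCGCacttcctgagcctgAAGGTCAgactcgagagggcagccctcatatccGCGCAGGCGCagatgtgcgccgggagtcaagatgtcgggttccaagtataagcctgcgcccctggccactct
Cox7a2l: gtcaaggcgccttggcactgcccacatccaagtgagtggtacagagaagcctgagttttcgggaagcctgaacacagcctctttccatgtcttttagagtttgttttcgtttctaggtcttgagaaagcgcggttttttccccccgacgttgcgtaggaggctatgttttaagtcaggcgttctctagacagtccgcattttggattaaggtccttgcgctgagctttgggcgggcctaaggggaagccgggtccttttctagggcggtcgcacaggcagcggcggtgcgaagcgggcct

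The NRF1 motif, searched as GCGCA and GCGC with any 1 base between them, was more frequent among member promoters than among other promoters. It was present in 18 of 76, or 23.7%, against 10.7% of 8449 other promoters of genes past the brightness filter and 4.78% of all 27025 promoters. In Sdha the matches started 98, 55 and 10 bases before the gene start, and in Ndufb4 they started 191, 79 and 22 bases before it. Ndufs5 held 1 match, at 98 bases before the start. The Cox7a2l window held none of the 6 motifs, which says only that these letters were not in it.

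The other motifs were searched with overlaps between motifs allowed. YY1 (AANATGGCG) was present in 11.8% of member promoters, against 5.67% of the other promoters past the filter. ERR (AAGGTCA) was present in 10.5%, against 3.11%. GABP (CCGGAAG) was present in 21.1% against 19.2%, the E-box (CACGTG) in 9.21% against 10.2% and the CCAAT box (CCAAT) in 44.7% against 39.1%. Among all promoters the shares were 2.51% for YY1, 4.66% for ERR, 9.12% for GABP, 7.24% for the E-box and 37.9% for the CCAAT box. Median GC content was 57.8% in member promoters and 60.7% in the other promoters past the filter. Members past the filter with an NRF1 match had a median log2 difference, cholesterol minus untreated, of 0.07 (18 genes), and those without had 0.04 (54 genes). Both medians were close to the 0.05 of all genes past the filter.

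**Figure D1:**
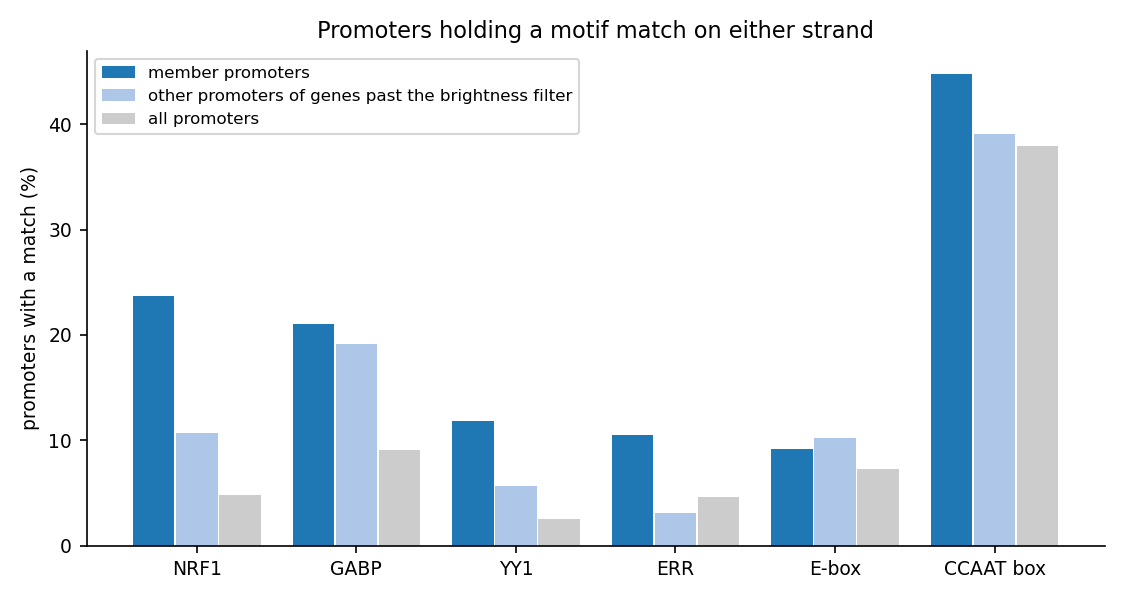
Share of promoters (y axis, percent) with at least 1 match to each of 6 motifs on either strand, for member promoters, other promoters of genes past the brightness filter and all promoters. NRF1 was present in 23.7% of member promoters, against 10.7% of the other promoters past the filter and 4.78% of all promoters.

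Signals are the authors' linear intensities. A gene passed the brightness filter when its brighter array reached a signal of 47.4, the median of all gene-level values. The 95th percentile of the 5222 negative control probe sets was 121.8 on the cholesterol array and 130.3 on the untreated array, and genes at or below it on both arrays are described as within the negative control range. Of the 93 members, 86 passed the brightness filter. Of those 86, 77 lay above the negative controls on both arrays, 2 on 1 array and 7 on neither. The 7 listed markers of CD8 T cells were bright on both arrays. Their signals lay between 578 and 5153 with cholesterol and between 536 and 4829 without. Among the 7, only Cd8a and Cd8b1 separate CD8 T cells from other T cells. All 7 were higher with cholesterol, a direction shared by 58.6% of all genes past the filter. Their median log2 difference was 0.21, with 0.21 in Cd8a, 0.31 in Cd8b1 and the highest, 0.46, in Cd3d. Among markers of other cells, the 5 of 6 B cell markers past the filter had a median log2 difference of -0.87 and a summed signal of 379 with cholesterol and 656 without. The 4 of 8 macrophage and dendritic cell markers past the filter had a median of -0.96, or -0.11 over all 8, and sums of 815 with cholesterol and 1566 without. Cd74 supplied 562 of the first sum and 1288 of the second, and Cd68 differed the other way, at 181 with cholesterol and 145 without. The 3 of 4 CD4 T cell markers past the filter had sums of 1140.5 with cholesterol and 1431 without. Il2ra, which activated CD8 T cells also express, supplied 709 of the first and 765 of the second, and Cd4 supplied 393 and 605. The 3 of 4 NK cell markers past the filter had sums of 769.6 with cholesterol and 1159.5 without. These NK sums rest mostly on Eomes, at 655 with cholesterol and 1038 without. Effector CD8 T cells express Eomes too, so the sums do not measure NK cells alone. Klrb1c was level, at 74.0 with cholesterol and 73.9 without, and Klri2 had 40.4 with cholesterol and 47.7 without. Neither Klrb1c nor Klri2 was brighter than the negative controls. On both arrays Ms4a1, Csf1r, Adgre1 and Ncr1 were within the range of the negative controls, and no marker was listed at 0. The part of these cells in the member values was not tested, and in bulk RNA fewer cells of a type and less RNA per cell cannot be told apart.

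Respiratory chain and ATP synthase genes differed little between the cholesterol and the untreated array. Over the 86 members past the filter the median log2 difference was 0.04, against 0.05 over all 11327 genes past it. The differences ran from -0.49 (Ndufs5) to 0.40 (Cox7a2l), and their standard deviation across members was 0.16, against 0.30 across all genes past the filter. No member past the filter reached 1.5-fold, a size that 3.22% of all genes past the filter reached upward and 2.72% downward. In the direction of higher with cholesterol there were 53 of 86 members, or 61.6%, against 58.6% of all genes past the filter. Both shares moved together with the scaling. The members higher numbered 39 after quantile normalization (45.3%, against 49.6% of all genes), 40 after loess (46.5%, against 49.9%) and 61 after each array was centred on its median (70.9%, against 65.4%). A total of 38 members were higher and 25 lower under all 4 scalings.

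A smaller threshold, a log2 difference of 0.32 in either direction, is a signal at least 25% higher or 20% lower with cholesterol. Past it were 5 members on the higher side and 2 on the lower side. Of all genes past the filter, 14.3% were past it on the higher side and 8.95% on the lower side. The genes past the filter were also split into 5 bands of mean signal, and the brightest band held 42 of the members. The standard deviation in that band was 0.12 across the 42 members, against 0.20 across its 2266 genes. Of these 2266 genes, 14 reached 1.5-fold upward and 19 downward. In that band 26 of the 42 members were higher by any amount, against 63.8% of its genes. Past the threshold were 1 of the 42 on the higher side, against 7.5% of the band, and 0 on the lower side, against 2.69%. The 5 higher members were Cox7a2l, Ndufv3, Sdhc, Ndufv2 and Ndufb5, and the 2 lower ones were Ndufs5 and Ndufaf2. After quantile normalization or loess the split was 2 higher (Ndufv3 and Cox7a2l) and 4 lower (Ndufs5, Ndufaf2, Ndufab1 and Cox7a2) in each case. Set against genes of their own band, 85 of the 86 members lay within the central 95% of their band. The exception was Ndufs5, at -0.494 beside a lower edge of -0.486.

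**Figure D2:**
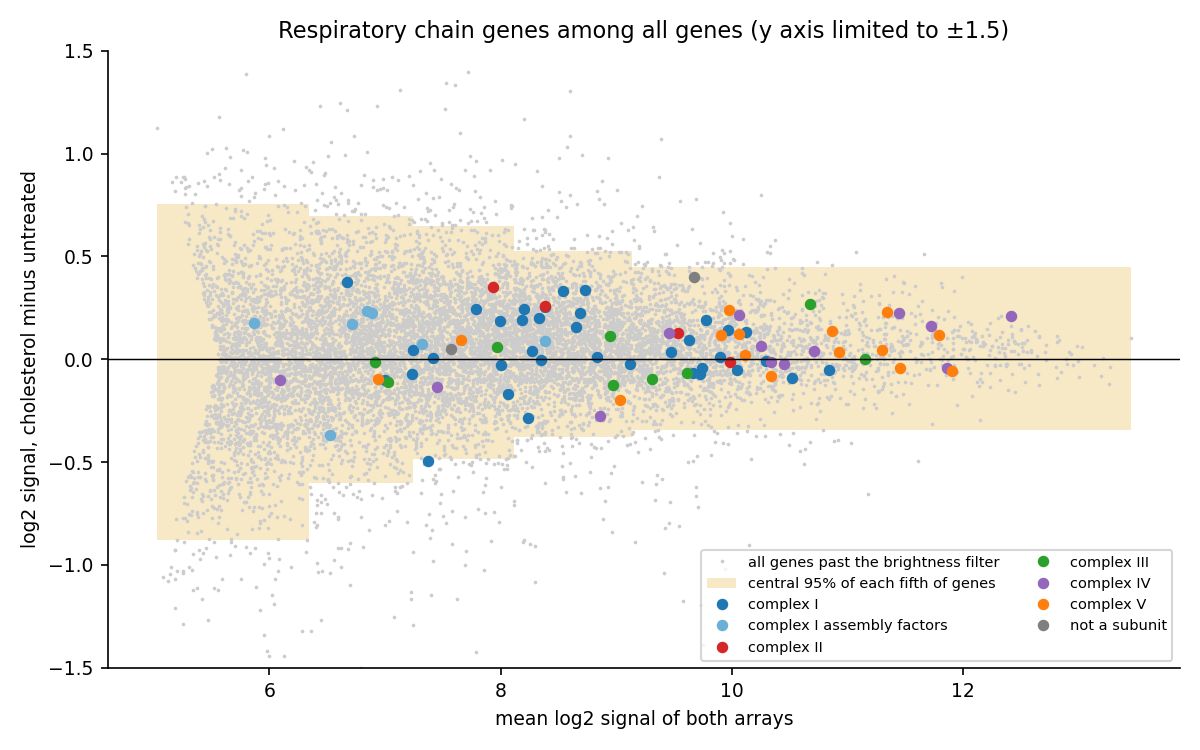
Log2 signal difference, cholesterol minus untreated (y axis), against mean log2 signal of both arrays (x axis) for all genes past the brightness filter (grey) and for the members in colours by complex. Shading is the central 95% of genes in each of 5 bands of signal, and 85 of 86 members lay inside it.

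Complex I, the NADH dehydrogenase, had 36 subunit genes, all past the filter, with a median log2 difference of 0.02. Of these, 21 were higher with cholesterol and 15 lower, and the median turned to -0.04 after quantile normalization and after loess. The 7 nuclear-encoded core subunits carry the flavin, the iron-sulfur clusters and the ubiquinone site. Their median was 0.14, with 6 of them higher, or 4 after quantile normalization and after loess. The core subunits encoded in mitochondrial DNA were not among the symbols measured. The 29 accessory subunits had a median of 0.01, with 15 higher, or 11 after either of these.

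Within the core, Ndufv2, an iron-sulfur subunit of the electron input module, had a signal of 478 with cholesterol and 379 without, 1.26-fold higher. Ndufs1, the largest iron-sulfur subunit, had signals of 271 with cholesterol and 238 without, a log2 difference of 0.19. Ndufv1, which binds NADH and the flavin, had 1047 with cholesterol and 949 without, a log2 difference of 0.14. The core genes Ndufs8, Ndufs3 and Ndufs7 were almost level between the arrays. Ndufs8 differed by 0.04, Ndufs3 by 0.01 and Ndufs7 by -0.02 on the log2 scale, and each of these 3 changed sign under another scaling.

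By position in the enzyme, the proximal membrane arm stood lowest. The modules were assigned from textbook knowledge after the values had been seen. The 9 genes of the proximal membrane arm had a median log2 difference of -0.04, with 2 higher and 7 lower, and the median stayed below 0 under each scaling, with 4 higher and 5 lower after centring. The distal membrane arm had a median of 0.10 over 11 genes, the NADH-binding (N) module 0.08 over 10 and the ubiquinone-binding (Q) module 0.04 over 6, which turned to -0.03 after quantile normalization and after loess. These medians lie within the range of single genes of each module, which ran from -0.49 to 0.20 in the proximal arm and from -0.29 to 0.33 in the distal arm.

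Beside Ndufv2, the single genes with the widest differences were accessory subunits. Ndufs5, an accessory subunit of the proximal arm that faces the intermembrane space, had a signal of 139.9 with cholesterol and 197 without, 1.41-fold lower. Ndufab1, the mitochondrial acyl carrier protein, which also serves lipoic acid and iron-sulfur cluster synthesis, had 274 with cholesterol and 334 without, 1.22-fold lower. Ndufb5 of the distal arm had 416 with cholesterol and 331 without, 1.26-fold higher. Ndufv3, an accessory subunit of the N module, had 116 with cholesterol and 89.6 without, both within the negative control range.

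The 7 Ndufaf genes encode assembly factors, which build complex I and are not part of the finished enzyme. Their median log2 difference was 0.17, with 6 of 7 higher, and it stayed above 0 under each scaling, at 0.11 after quantile normalization and 0.13 after loess. Only Ndufaf4 and Ndufaf7 were above the negative controls on both arrays, and they differed by 0.09 and 0.07, with Ndufaf4 turning to -0.0031 after quantile normalization. Ndufaf2, a paralogue of the subunit Ndufa12 that holds its place during assembly, had 81.2 with cholesterol and 105 without, within the negative control range. The median of this set therefore rests on dim genes.

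**Figure D3:**
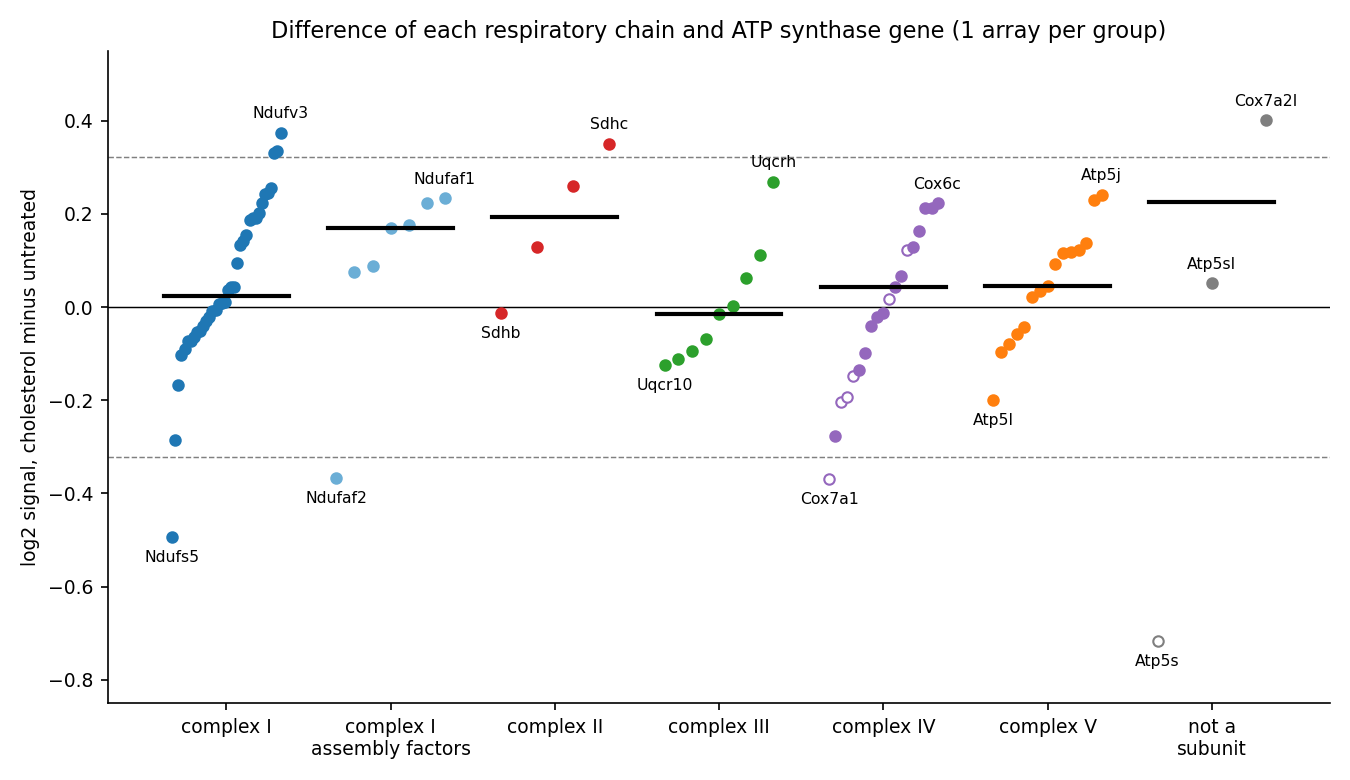
Log2 signal difference, cholesterol minus untreated (y axis), of each of the 93 members, by complex (x axis). Filled points passed the brightness filter, open points did not, black bars are medians of filled points and dashed lines mark a log2 difference of 0.32 in either direction. Complex II has the highest median among the 5 complexes, at 0.19, and complex III the lowest, at -0.01.

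Complex II, succinate dehydrogenase, belongs to both the chain and the tricarboxylic acid cycle, and it is the one complex encoded wholly in the nucleus. Its 4 genes had the highest median of the 5 complexes, a log2 difference of 0.19, and it stayed above 0 at 0.13 after quantile normalization and 0.13 after loess. Sdhc, a membrane anchor that helps form the ubiquinone site, had a signal of 275 with cholesterol and 216 without, 1.28-fold higher. Sdha, the flavoprotein that oxidises succinate, had 366 with cholesterol and 306 without, 1.20-fold higher. The second anchor, Sdhd, had 772 with cholesterol and 707 without, a log2 difference of 0.13. The iron-sulfur subunit Sdhb was level between the arrays, at 1010.0 with cholesterol and 1019 without. With 4 genes and 1 array per group, no test sets this median apart from those of the other complexes.

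Complex III, the cytochrome bc1 complex, had the lowest median, -0.01 over 9 genes, with 4 higher and 5 lower, and the sign turned to 0.02 when each array was centred. That median was the value of Uqcr11, at 120 with cholesterol and 121 without, within the negative control range. Over the 8 genes above the negative controls the median was -0.03. The catalytic subunits of complex III lay on either side of 0. Uqcrfs1, the Rieske iron-sulfur protein, had 511 with cholesterol and 473 without, a log2 difference of 0.11. Cyc1, cytochrome c1, had 125 with cholesterol and 135 without, a difference of -0.11 at signals just above the negative controls. Uqcrh, the hinge protein that joins cytochrome c1 to cytochrome c, had the highest difference in the complex, at 1789 with cholesterol and 1485 without, 1.20-fold higher. The small subunit Uqcr10 was the lowest, at 481 with cholesterol and 524 without, a log2 difference of -0.12.

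Complex IV, cytochrome c oxidase, had a median of 0.04 over the 13 of its 19 genes that passed the filter, with 7 higher and 6 lower. The median turned to -0.02 after quantile normalization, -0.01 after loess and -0.01 over all 19 genes without the filter. The 11 common subunits alone had a median of 0.07, with 7 higher and 4 lower. The other 2 genes past the filter were the tissue isoforms Cox6a2 and Cox6b2, both lower and described below. Ndufa4 was counted here, since its protein is a subunit of complex IV despite its name, and it was level at 1391 with cholesterol and 1413 without. Cox6c, a small membrane subunit, had 3009 with cholesterol and 2578 without, 1.17-fold higher. Cox5a had 1148 with cholesterol and 990.3 without, and Cox7c had 5869 with cholesterol and 5067 without, each a log2 difference of 0.21. In the other direction, Cox7a2 had 422 with cholesterol and 511 without, 1.21-fold lower. The remaining common subunits, Cox4i1, Cox5b, Cox6a1, Cox6b1, Cox7b and Cox8a, lay between -0.04 and 0.16.

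Several complex IV subunits exist as isoforms used in particular tissues such as heart, muscle, lung or testis. Of 6 alternative isoforms paired with a common one, Cox4i2, Cox6a2, Cox7a1, Cox8b and Ndufa4l2 had both signals inside the negative control range. Cox6b2, known as the testis isoform, was above it, at 167 with cholesterol and 183 without, a log2 difference of -0.14. The other testis-linked isoforms, Cox7b2 and Cox8c, did not pass the brightness filter. Of the 6 paired isoforms, 4 did not pass the brightness filter.

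Cox7a2l, known for a role in joining complexes III and IV into supercomplexes, was not counted among the complex IV subunits here. It had the highest difference of all 86 members past the filter, at 938 with cholesterol and 711 without, 1.32-fold higher, and its log2 difference of 0.40 ran from 0.34 to 0.43 over the scalings. Its relative Cox7a2 had a log2 difference of -0.28. The remaining symbols outside the complexes were Atp5sl, at 0.05, and Atp5s, at 14.4 with cholesterol and 23.6 without, below the filter and within the negative control range.

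ATP synthase, complex V, had a median of 0.05 over 15 genes, with 10 higher and 5 lower, and the median turned to -0.01 after loess. The catalytic head was almost level. Atp5a1, the alpha subunit, had 3686 with cholesterol and 3397 without, a log2 difference of 0.12. Atp5b, the catalytic beta subunit, had 3754 with cholesterol and 3907 without, a difference of -0.06. The rotor subunits Atp5c1, Atp5d and Atp5e lay between -0.04 and 0.09.

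The 4 genes of the peripheral stalk, which holds the head still, were all higher with cholesterol, with a median of 0.12. Atp5j had 1092 with cholesterol and 924 without, 1.18-fold higher, while Atp5h, at 0.05, changed sign under quantile normalization and loess. A set of 3 genes encodes the c subunit of the rotor ring, with different import sequences and the same mature protein. Atp5g2 had 2802 with cholesterol and 2388 without, 1.17-fold higher. Atp5g1 had 1258 with cholesterol and 1329 without, and Atp5g3 had 1113 with cholesterol and 1096 without. The 3 c subunit genes therefore did not share a direction, at 0.23, -0.08 and 0.02 on the log2 scale. Among the small membrane subunits, Atp5l had 489 with cholesterol and 562 without, 1.15-fold lower, while both Atp5k signals were inside the negative control range.

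**Figure D4:**
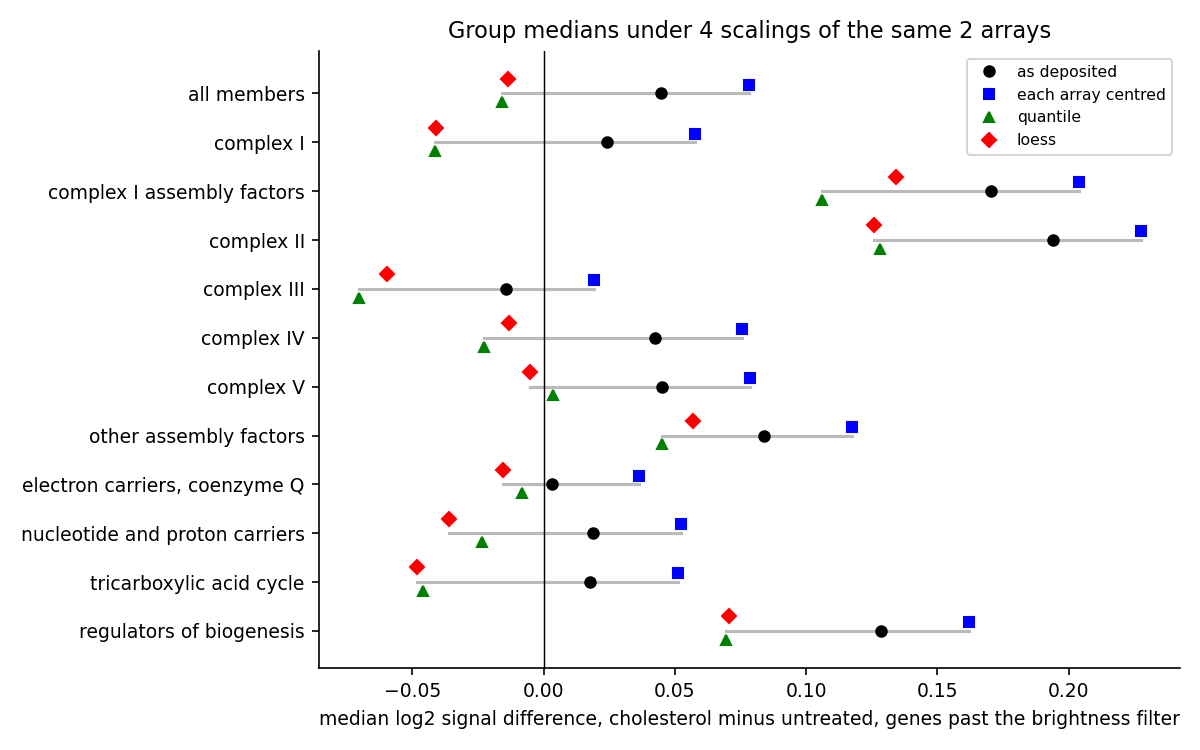
Median log2 signal difference, cholesterol minus untreated (x axis), of genes past the brightness filter in each group (y axis) under 4 scalings of the same 2 arrays. The medians of complex II, of both sets of assembly factors and of the regulators lay above 0 under all 4, and those of all members and of complexes I, III, IV and V changed sign.

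Other genes of the pathway were compared as lists. Assembly factors outside the symbol rule had a median log2 difference of 0.08 over 32 of 34 measured genes, with 19 higher, 12 lower and Sdhaf1 equal, and the median was 0.05 after quantile normalization and 0.06 after loess. Past the 25% threshold was 1 higher gene and 0 lower ones, beside 14.3% and 8.95% of all genes past the filter. The higher one was Uqcc3, a complex III assembly factor, at 331 with cholesterol and 261 without. Acad9, a complex I assembly factor, had 243 with cholesterol and 302 without, a log2 difference of -0.31. Electron carriers and enzymes of coenzyme Q synthesis had a median of 0.0031 over 16 genes. That median turned to -0.0084 after quantile normalization and -0.016 after loess. Past the threshold were 3 higher genes and 2 lower ones, beside 14.3% and 8.95% of all genes past the filter. Among them, Pdss1 and Coq4 (higher) and Adck3 (lower) lay within the negative control range. Cytochrome c itself, Cycs, was level at 1433 with cholesterol and 1437 without. Gpd2, which feeds electrons from glycerol phosphate into ubiquinone, had 320.0 with cholesterol and 429 without, 1.34-fold lower, and Coq4, of coenzyme Q synthesis, differed by 0.47 within the negative control range.

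Adenine nucleotide, phosphate and proton carriers and the ATPase inhibitor were listed together and differed little. Their median was 0.02, and it turned to -0.02 after quantile normalization and -0.04 after loess. The 5 of 6 genes past the filter ran from -0.07, in the mitochondrial carrier Ucp2, to 0.18, in the ATPase inhibitor Atpif1. Tricarboxylic acid cycle and pyruvate entry enzymes had a median of 0.02 over 19 genes, turning to -0.05 after quantile normalization or loess. Past the threshold were 0 higher and 2 lower, beside 14.3% and 8.95% of all genes past the filter. One of the 2 lower enzymes, Sucla2, a subunit of succinyl-CoA synthetase, lay within the negative control range. Complex II, which is also a cycle enzyme, had its median at 0.19 beside these.

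Regulators of mitochondrial biogenesis had the highest median of these lists, 0.13 over 12 of 13 genes, with 9 higher and 3 lower, and it was 0.07 after quantile normalization and 0.07 after loess. Among genes above the negative controls it was 0.11, below the 0.13 of the assembly factors outside the symbol rule. Ppargc1b, a coactivator of nuclear genes for mitochondrial proteins, had 229 with cholesterol and 149 without, 1.54-fold higher. Its relative Ppargc1a was within the negative control range, at 11.8 with cholesterol and 14.6 without. Nrf1, whose motif was searched for in the promoters above, had 594 with cholesterol and 549 without, a log2 difference of 0.11. Polrmt, the mitochondrial RNA polymerase, differed by 0.34 within the negative control range. Other genes that the authors' table annotates to the mitochondrial inner membrane had a median of 0.06 over 235 genes past the filter, against 0.04 for the members.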

How the data were processed

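Per the labels' protocols, total RNA was extracted with Trizol and labelled with biotin by whole-transcript sense target labelling, and 1 array was made per group. The deposited values are linear signal intensities for 28846 probe sets. No source used here names their software, background correction, normalization or genome build. The authors' deposited ratio of cholesterol over untreated signal equalled the quotient of their signals for all 22206 probe sets that carry it, within a relative tolerance of 1e-08. The series value table held the same intensities.

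Of 22206 annotated probe sets, 27 with date-like symbols, 3 without a symbol and 1 with a symbol pair were left out, and 21877 genes remained, each by its brightest probe set on mean log2 signal. Differences are log2 cholesterol minus log2 untreated. With 1 array per group no test was run, and precision is limited by that number of arrays. Where a gene had more than 1 bright probe set (67 genes), the brightest 2 gave log2 differences a median of 0.14 apart. The 95th percentile of that gap was 0.68, wider than the difference of any member past the filter. A level is not compared between probe sets.

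The alternatives were centring, quantile normalization, loess (statsmodels 0.14.6, fraction 0.4), the mean of all probe sets, no brightness filter, only genes above the negative controls, and subtraction of the negative control median with a floor of 16. The deposited scaling, centring, quantile normalization and loess were run on simulated data with known differences. Only the loess result was held to a limit there, and the brightness filter, bands and motif search were not simulated. The members and lists were chosen with earlier results of these data known. Genes were named by rule as the 2 most positive and 2 most negative of each complex past the filter, the core and isoform genes, and the 2 largest absolute differences of each list, and the other genes named were chosen after their values were seen. Cox16 had no matching symbol, and Coq8a was matched as Adck3 through RefSeq synonyms. Each promoter is the first listed for its gene, and 6 members had several. Some of the genes that the naming rule picks are not reported here.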

Additional observations from a re-analysis of the deposited data

Results flagged for a closer look

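The 1324 positive control probe sets, which no comparison used, differed by a median of 0.067 on the log2 scale, with median signals of 273 on the cholesterol array and 259 on the untreated one. The median over the 5222 negative controls was -0.0016. This was singled out as a signal in data outside the comparisons, and it lies near the medians of the members (0.04) and of all genes past the brightness filter (0.05).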

How the results depend on the processing

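Over 14 results, 101 values were recomputed, 95 of them within 0.1 on the log2 scale of the reported median or within 1.5 times of the reported count. The 6 others were counts of members at least 25% higher or 20% lower. The count of higher members, 5 as reported, was 2 after quantile normalization and 2 after loess. The count of lower members, 2 as reported, was 4 after quantile normalization, 4 after loess, 4 without the brightness filter and 1 among genes above the negative controls. Quantile normalization and loess set the median of all genes past the filter to -0.0017 and -0.00078, against 0.05 as deposited, and the changes of filter counted 93 and 79 members in place of 86. No median moved by more than 0.068, but 15 of the recomputed medians changed sign, all of them medians within 0.1 of 0. Assigning complexes by symbol alone, chosen after seeing the data, gave 0.04 for complex I, 0.07 for complex IV and 0.05 for complex V. No replicate could be left out with 1 array per group. No paired analysis was possible because each group has 1 array and no test. Signals within the negative control range limit what can be said of the dim isoforms and most Ndufaf genes.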
